A study of Mus musculus with 2 samples.

Results

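The 86 genes described here encode the proteins of the cytosolic ribosome and their closest namesakes, measured in single epithelial cells of mouse ileal crypts. They were chosen by symbol alone, as all genes whose symbol is Rpl or Rps followed by a digit, together with Rplp0, Rplp1, Rplp2 and Rpsa. Processed copies marked -ps (9 symbols) and the Rps6k kinases (10 symbols) were left out. The rule took 86 of the 31053 genes in the count matrices. Of these, 46 encode canonical large-subunit proteins and 31 canonical small-subunit proteins. A further 7 are paralogs (Rpl3l, Rpl10l, Rpl22l1, Rpl36al, Rpl39l, Rps27l and Rps27rt), and 2 are not ribosomal proteins despite their symbols (Rpl7l1 and Rps19bp1). In all, 83 of the 86 passed the filter on low counts. The other 3 were Rpl10l and Rpl39l, with 0 UMIs in the listed cells, and Rpl3l, with 1 UMI. Fau and Rack1 also encode parts of the small subunit but carry other symbols, and they are given separately.

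The series holds droplet-based 3′ single-cell RNA-seq (10x Genomics) of 2 libraries of 1 group, called replicate 1 and replicate 2. The mice carried Atoh1CreER-T2 and R26RTom, so that tamoxifen switches on the red reporter Tom in cells with Cre activity driven by Atoh1, a transcription factor of the secretory lineage, and in the progeny of those cells. They received 2 doses of tamoxifen (1 mg/mL) 24 h apart, and Tom+ DAPI- ileal crypt cells were sorted 12 h after the last dose. The sample titles call the cells WT. All cells share this genotype and treatment, and no label tells if each library is a different animal or a pool. The p-values below measure the scatter left after the mean difference between the 2 libraries is taken out, pooled over the 12 classes. They cannot be read as a spread between mice. The ages of the mice do not appear in the sources used here. The authors' cell table assigns 11562 cells to 12 classes, and all comparisons below are between those classes, drawn from expression in the same cells. Most marker lists were highest in the classes named for them. The secretory progenitor list was not: it took 0.0556 and 0.0508% of UMIs in GP against 0.0443 and 0.0419% in SEC-PRO. Goblet markers took 15.2 to 37.6% of UMIs in GOBLET-PRE and GOBLET against at most 8.04% elsewhere. Paneth markers took 20.9 to 46.8% in PANETH-PRE and PANETH against at most 2.26% elsewhere. The stem cell, enteroendocrine, tuft and enterocyte lists were likewise highest in ISC, EEC-PRE with EC and NON-EC, TUFT and ENTERO-PRO. Markers of cells outside the epithelium were near 0: T and B cell markers gave 78 UMIs over all 11562 cells, myeloid markers 747, stromal and endothelial markers 30 (with 3 of 6 genes at 0) and haemoglobin genes 32. The listed cells held 32656481 UMIs in 5305 cells of replicate 1 and 27014983 UMIs in 6257 cells of replicate 2, and 12 cell barcodes occurred in both libraries.

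As background, a ribosome is built from ribosomal RNA and one copy of most of these proteins, so that cells make the members in near-equal amounts. Their mRNAs are among the most abundant in growing cells, and their translation is switched on and off together by nutrient and mTOR signalling through a run of pyrimidines (C or T) that begins with C at the very 5′ end of the mRNA, the TOP motif. In the crypt, stem cells and dividing progenitors build ribosomes as they grow, while mature goblet and Paneth cells fill with a few very abundant secretory mRNAs. Paralogs such as Rps27l and Rpl22l1 can take the place of the canonical protein and are known to vary between tissues.

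Sequences near the start sites of 11 members are printed first, with their pyrimidine runs, and the reasons for their choice follow the list. RefSeq start-site windows (GRCm38.p6) were at hand for 66 of the 86 members. Each line gives 30 bases, 5′ to 3′ on the gene's own strand, with the C-started pyrimidine run in capitals. All 11 genes are protein coding.
Rps2, chr17:24720083-24720112, plus strand: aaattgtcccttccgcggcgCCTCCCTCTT
Rpl35, chr2:39005115-39005144, minus strand: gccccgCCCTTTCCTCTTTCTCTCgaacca
Rps18, chr17:33955648-33955677, minus strand: gtcacttccgCTCTCTCTTCCacaggaggc
Rps15a, chr7:118116143-118116172, minus strand: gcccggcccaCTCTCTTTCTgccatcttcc
Rpl41, chr10:128549119-128549148, minus strand: cgccattaaatagcagtaggCCTCCCTCTC
Rps27, chr3:90213632-90213661, minus strand: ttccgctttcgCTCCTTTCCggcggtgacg
Rps27l, chr9:66946053-66946082, plus strand: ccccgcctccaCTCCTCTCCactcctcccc
Rpl36a, chrX:134585672-134585701, plus strand: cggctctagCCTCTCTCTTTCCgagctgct
Rpl36al, chr12:69184020-69184049, minus strand: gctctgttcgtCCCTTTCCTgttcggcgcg
Rpl22, chr4:152325679-152325708, plus strand: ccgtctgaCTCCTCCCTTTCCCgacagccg
Rpl22l1, chr3:28805500-28805529, plus strand: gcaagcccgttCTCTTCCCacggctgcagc
The first 4 were among the members with the largest falls from GOBLET-PRE to GOBLET. Rpl41 and Rps27 are the canonical genes that passed the test below for a higher level there relative to all member UMIs. Other canonical genes, such as Rps29, Rpl38 and Rpl10, also had their highest share of member UMIs in GOBLET without passing it. The last 5 complete the pairs of a canonical gene and its paralog (Rps27 and Rps27l, Rpl36a and Rpl36al, Rpl22 and Rpl22l1). Each marked run is the longest in the window searched, or the first of equally long ones, and need not lie at the 5′ end of the mRNA. In Rps27l an equally long run follows in small letters, nearer the annotated start. With the annotated start as position 1 and the base before it as -1, they began at -7 in Rpl35, -2 in Rps18 and Rps27, 4 in Rpl22l1 and -15 in Rps15a, but at 41 in Rps2 and Rpl41, 30 in Rpl36al, 28 in Rpl36a, -22 in Rps27l and -39 in Rpl22. The run was 18 bases long in Rpl35 and 14 in Rpl22, and 8 in Rpl22l1. In Rps2 and Rpl41 the run reached the end of the window searched, so its full length is not shown.

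A C-started run of at least 8 pyrimidines, searched on the sense strand within 50 bases on each side of the annotated start, was present in 53 of 66 members (80.3%), against 8645 of the 27025 genes with such a window (31.99%). The letters CTTTCC, which overlap such runs, were present on the sense strand in 21 of 66 members (31.8%) and in 5.43% of all genes. CGGAAG, the core bound by Ets-family factors, was present on either strand in 26 of 66 members (39.4%) and in 10.4% of all genes. TATAAA was present in 5 of 66 members (7.58%) against 5.77% of all genes, and the E-box CACGTG in 2 of 66 (3.03%) against 3.39%. Of the 7 paralogs, all of which had a window, 5 held the run. A match describes letters in the window and is not a measured site.

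The members took 24.1% of all UMIs in the stem cell class and a few percent in mature goblet and Paneth cells. The share of UMIs in members was 24.48% and 23.81% in replicates 1 and 2 of ISC (24.1% ± 0.47, SD, n = 2) and 24.72% and 23.42% in EEC-PRE (24.1% ± 0.92). It was 19.4% ± 0.32 in GP, 19.0% ± 0.16 in SEC-PRO, 18.6% ± 1.55 in TUFT and 16.2% ± 0.06 in GOBLET-PRE. It was 15.7% ± 0.74 in ENTERO-PRO, 14.99% ± 0.81 in NON-EC, 14.2% ± 0.82 in EC and 13.9% ± 0.28 in PANETH-PRE. GOBLET had 3.20% and 4.29% (3.75% ± 0.77), and PANETH had 2.66% and 3.14% (2.90% ± 0.34). The 4 values of GOBLET and PANETH lay below all 20 others. Neighbours in this order whose 2 libraries overlapped were ISC and EEC-PRE, SEC-PRO and TUFT, GOBLET-PRE and ENTERO-PRO, ENTERO-PRO and NON-EC, NON-EC and EC, and EC and PANETH-PRE. Counting error was small beside this: the widest exact 95% binomial interval, in EEC-PRE of replicate 2, ran from 23.2 to 23.6%. These intervals cover counting error only.

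**Figure D1:**
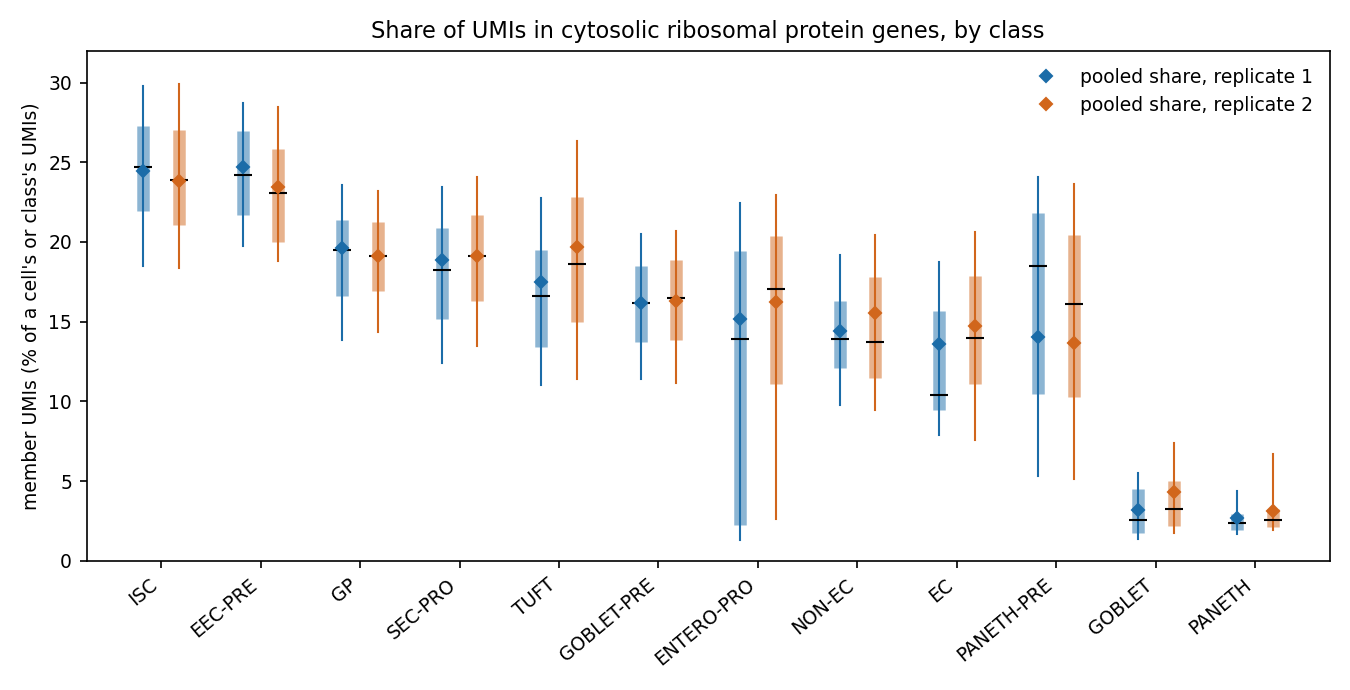
Share of UMIs in the 86 members (y axis, percent) for the 12 classes (x axis, in order of the mean). Diamonds are the share of all UMIs of a class in replicate 1 (blue) and replicate 2 (orange), black ticks the median over cells, thick bars the 25th to 75th and thin lines the 10th to 90th percentile of cells. ISC and EEC-PRE lie near 24% and GOBLET and PANETH below 5%, and ENTERO-PRO and PANETH-PRE are spread widest.

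The mature classes also differed in how many UMIs a cell held. PANETH cells carried a mean of 498 member UMIs among 17546 UMIs per cell, against 1213 among 5016 in ISC and 875 among 6294 in PANETH-PRE. GOBLET cells carried 118 member UMIs among 3221, against 760 among 4687 in GOBLET-PRE. The fixed cell type markers took 48.2 and 49.4% of all UMIs in PANETH and 38.7 and 39.4% in GOBLET. With those markers left out of the total, the member share was 5.67% in PANETH and 6.15% in GOBLET, still under the 15.4% of EC, the class with the next lowest value. UMIs of mitochondrial genes moved with the members in these classes, at 1.12 and 1.06% in PANETH and 1.88 and 1.80% in GOBLET, against 5.43 and 4.88% in ISC. Gm42418, a gene model known to collect reads of ribosomal RNA, took 8.97 and 6.73% of UMIs in GOBLET, 4.35 and 3.16% in ENTERO-PRO and 0.50 and 0.54% in PANETH. With mitochondrial UMIs, or those of Gm42418 and Malat1, left out of the total, the GOBLET and PANETH shares stayed within the SD of their 2 libraries. Any further part of these UMIs in the member share was not tested.

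Scaling for composition separated the mature classes. TMM factors, computed by edgeR so that the bulk of well-measured genes is level between classes, were 0.23 and 0.26 in PANETH and 0.66 and 0.70 in GOBLET. On this TMM-scaled scale the summed member level was 19.3% ± 0.59 in EEC-PRE and 19.1% ± 0.76 in ISC, 16.1% ± 0.63 in PANETH-PRE and 15.3% ± 0.02 in GP. It was 14.9% ± 0.28 in SEC-PRO, 14.8% ± 0.08 in GOBLET-PRE, 14.1% ± 1.13 in TUFT and 13.9% ± 0.37 in ENTERO-PRO. PANETH reached 12.0% ± 0.47, above NON-EC (11.6% ± 0.58) and EC (11.2% ± 0.67), and its libraries overlapped those of both. GOBLET stayed apart at 5.53% ± 0.92. GOBLET was the lowest class on the scaled level and PANETH on the unscaled share.

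**Figure D2:**
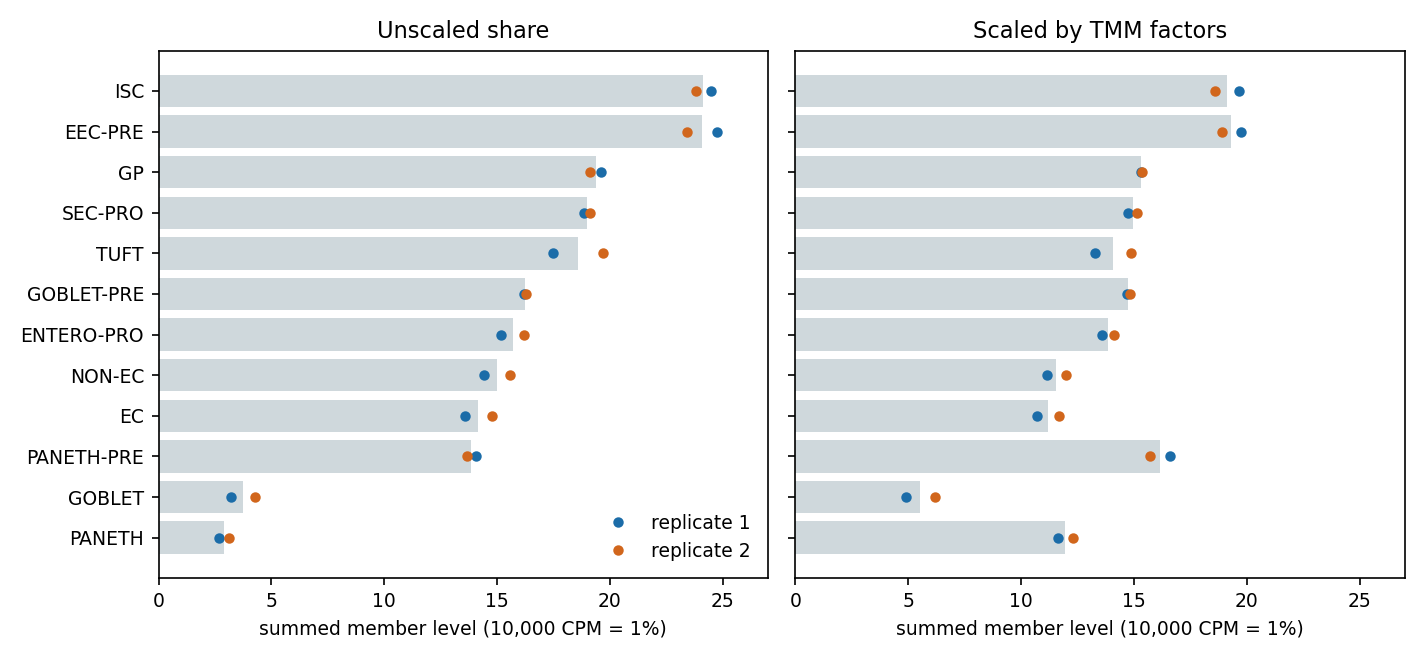
Summed level of the 86 members per class (x axis, percent of UMIs, or the same after division by TMM factors), unscaled on the left and TMM-scaled on the right, with classes in the order of the unscaled share. Bars are means of 2 libraries and dots the libraries. PANETH moves from 2.90% to 12.0% and GOBLET from 3.75% to 5.53%.

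Large- and small-subunit genes kept close to one ratio. The UMIs of large-subunit genes divided by those of small-subunit genes gave 1.19 ± 0.02 (SD, n = 2) in ISC, 1.19 ± 0.004 in EEC-PRE, 1.254 ± 0.007 in GOBLET-PRE, 1.28 ± 0.03 in PANETH and 1.31 ± 0.03 in GOBLET. The libraries of GOBLET did not overlap those of ISC or EEC-PRE in this ratio. This was not particular to GOBLET, since the ratio was also above ISC and EEC-PRE in PANETH-PRE (1.272 ± 0.006) and GP (1.235 ± 0.002).

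Within 2 of the classes single cells differed widely in their member share. In ENTERO-PRO, 45 of 118 cells in replicate 1 (38.1%) and 26 of 179 in replicate 2 (14.5%) had under 6% of their UMIs in members, a limit set after the values were seen, and only 9 cells in each replicate lay between 4 and 8%. The cells under 6% had a median of 1855 and 2499.5 UMIs, against 7388 and 4167 in the other cells. Their median share of enterocyte markers was 2.30 and 2.49%, against 0.028 and 0.030%. Fabp2, a fatty acid carrier of enterocytes, had a median of 1.92 and 2.28% of UMIs there, against 0.055 and 0.041%. Apoa1, an apolipoprotein, had 2.05 and 2.06%, against 0 in both replicates. Gm42418 had 9.62 and 10.0%, against 1.87 and 1.84%. Malat1, a nuclear RNA, had 3.004 and 2.13%, against 0.793 and 1.15%, and the median number of genes detected was 765 and 1024, against 2390 and 1762. Low-member cells of ENTERO-PRO thus had fewer UMIs and genes and larger shares of enterocyte genes, Gm42418 and Malat1, and the 2 libraries held different shares of them. In PANETH-PRE, 25 of 226 and 39 of 316 cells were under 6%, with 28 and 45 between 4 and 8%. Those cells had more UMIs than the rest (medians of 12963 and 8089 against 6141 and 4081) and more Paneth marker UMIs (43.8 and 41.3% against 8.62 and 8.80%).

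The classes were next compared gene by gene in 9 contrasts along the lineages that the class names describe. UMIs were summed per class and library, and edgeR's quasi-likelihood test with the library as a term was run on 10994 genes, with Benjamini-Hochberg adjustment over all of them and a threshold of 0.05. Levels of single genes are TMM-scaled CPM (UMIs scaled to a common library total) of replicates 1 and 2 in that order. Changes are log2 with their standard error, and "rose" or "fell" is used only past the threshold. The standard error was worked back from the test, as the size of the change divided by the square root of its F value. Where the count of members moved by more than 1.5 times without the library term, that count is given. SEC-PRO, ENTERO-PRO and TUFT are each set against the same ISC sums, and GP, PANETH-PRE and EEC-PRE against the same SEC-PRO sums.

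Set against the stem cell class, most members were lower in secretory progenitors, ENTERO-PRO and TUFT. In SEC-PRO against ISC, 67 of 83 members fell and 0 rose, where 15.3% of all genes tested fell and 19.2% rose. Their median log2 change was -0.37, against 0.02 over all genes. Of the large subunit 40 of 46 fell and of the small subunit 27 of 31, and none of the 4 paralogs tested did. Rps2, a small-subunit protein at the mRNA entry channel, was at 2451 and 1945 CPM in SEC-PRO and 3858 and 2828 in ISC, a change of -0.60 ± 0.14 (edgeR adjusted p = 3.11e-04). Rps26, a small-subunit protein at the mRNA exit, was at 2018 and 2212 CPM against 3117 and 3094 (-0.56 ± 0.13, edgeR adjusted p = 3.22e-04). Rps20, of the small-subunit head, was at 2610 and 2411 CPM against 3853 and 3258 (-0.50 ± 0.13, edgeR adjusted p = 0.00112). For all 3 genes both SEC-PRO libraries lay below both ISC libraries. The count fell to 10 without the library term.

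In ENTERO-PRO against ISC, 74 of 83 members fell and 0 rose (18.4% of all genes fell and 18.6% rose), with a median of -0.48 against -0.07 over all genes. Rpsa, a small-subunit protein that also serves as a laminin receptor, was at 1884 and 2449 CPM against 3264 and 3674 (-0.69 ± 0.13, edgeR adjusted p = 1.15e-05). Rpl13a, a large-subunit protein, was at 140.3 and 153.4 CPM against 259.6 and 237.2 (-0.75 ± 0.13, edgeR adjusted p = 1.71e-06). The ENTERO-PRO sums include the cells with few member UMIs described above, and the part of those cells in the result was not tested. Without the library term 45 members fell.

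In TUFT against ISC, 69 of 83 members fell and 0 rose (13.7% of all genes fell and 15.4% rose), with a median of -0.44 against 0.02 over all genes. Rps2 was at 1630 and 1672 CPM in TUFT (-0.999 ± 0.14, edgeR adjusted p = 1.68e-08), the most negative change of any member in this contrast, and Rpl36a, a large-subunit protein, was at 652.7 and 786.7 CPM against 1226 and 1133 (-0.72 ± 0.10, edgeR adjusted p = 2.71e-09). The libraries differed here, with a median of -0.56 in replicate 1 and -0.29 in replicate 2. Without the library term 31 members fell.

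Few members passed the test between SEC-PRO, GP and GOBLET-PRE, although the unscaled share was lower in GOBLET-PRE (16.2%) than in GP (19.4%). In GP against SEC-PRO, 0 of 83 members passed edgeR's test in either direction, where 4.38% of all genes rose and 12.8% fell. In this contrast 1 member had an unadjusted p under 0.05, and DESeq2 called 1 higher. The member changes ran from -0.13 to 0.19, with a median of 0.04. In GOBLET-PRE against GP only Rpl13a fell (138.3 and 141.1 CPM against 185.7 and 163.9, -0.33 ± 0.10, edgeR adjusted p = 0.0313), where 4.48% of all genes fell and 4.9% rose. DESeq2 did not call Rpl13a, and neither did edgeR without the library term or with TMM factors over all genes. With no scaling factors 20 members fell and the median was -0.27, against -0.07 with TMM. Rpl13a spans several snoRNA genes on its own strand, and the sources used here do not say how shared reads were counted.

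On the TMM scale the median fall was largest from GOBLET-PRE to GOBLET. With no scaling factors it was -2.19 there and -2.27 from PANETH-PRE to PANETH. Here 80 of 83 members fell and 0 rose, where 3.9% of all genes tested fell and 8.21% rose, and the median log2 change was -1.49 against -0.08 over all genes. All 46 large-subunit genes fell (-2.03 to -0.53) and all 31 small-subunit genes (-2.06 to -0.93). The 3 members not called were Rps27rt, Rpl36al and Rps19bp1. Rps2 was at 395.5 and 470.3 CPM in GOBLET against 2093 and 1643 in GOBLET-PRE (-2.06 ± 0.18, edgeR adjusted p = 2.20e-16). Rpl35, a large-subunit protein by the exit of the peptide tunnel, was at 178.0 and 371.3 CPM against 930.4 and 1359 (-2.03 ± 0.14, edgeR adjusted p = 1.62e-20). Rps18, of the small-subunit head, was at 405.4 and 600.2 CPM against 2342 and 1843 (-1.98 ± 0.17, edgeR adjusted p = 6.02e-17). For each of these genes the GOBLET libraries lay far below those of GOBLET-PRE. The fall was smallest among canonical genes in Rpl41, the smallest large-subunit protein, at 2640 and 4053 CPM against 4047 and 5571 (-0.53 ± 0.13, edgeR adjusted p = 0.00254). GOBLET had 42 and 84 cells, and the members' medians were -1.62 and -1.33 in replicates 1 and 2. The Gm42418 and mitochondrial shares given above moved with this contrast, and their part in it was not tested.

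The Paneth classes were compared next. In PANETH-PRE against SEC-PRO, 7 of 83 members rose (Rpl5, Rpl9, Rpl10, Rpl41, Rps24, Rps28 and Rps27l) and 0 fell, where 11.9% of all genes tested rose and 15.2% fell. DESeq2 called 16 higher, and 14 rose in cells thinned to 2000 UMIs. Rpl10, a large-subunit protein that joins late in assembly, was at 2202 and 1732 CPM in PANETH-PRE against 1577 and 1411 (0.39 ± 0.08, edgeR adjusted p = 1.47e-04). Rpl41 was at 5208 and 6247 CPM against 3890 and 4909 (0.39 ± 0.13, edgeR adjusted p = 0.0159). This direction rests on the scaling: with no scaling factors 0 members rose and 75 fell, Rpl10 and Rpl41 were both at -0.18, and the median turned from 0.09 to -0.48, as the median of all genes also dropped by 0.57. Without the library term 0 rose.

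In PANETH against PANETH-PRE, 62 of 83 members fell and 1 rose, where 2.79% of all genes fell and 5.31% rose, and the median was -0.45 against 0.09 over all genes. Of the large subunit 37 of 46 fell, and of the small subunit 24 of 31. Rps19, whose human counterpart is mutated in Diamond-Blackfan anaemia, was at 1195 and 1287 CPM in PANETH against 2132 and 1968 (-0.72 ± 0.13, edgeR adjusted p = 3.15e-05). Rps15a, a small-subunit protein, was at 1201 and 1113 CPM against 2133 and 1712 (-0.73 ± 0.13, edgeR adjusted p = 1.73e-05). Both genes were lower in each PANETH library than in either PANETH-PRE library. The member that rose was Rps27l. Without the library term 12 fell and 0 rose, in cells thinned to 2000 UMIs 0 rose, and with no scaling factors all 83 fell, by a median of -2.27.

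In EEC-PRE, whose sums were among the smallest by UMIs, the members were higher. Against SEC-PRO, 53 of 83 rose and 3 fell, where 12.7% of all genes tested rose and 10.6% fell, with a median of 0.36 against 0.00 over all genes. Of the large subunit 33 of 46 rose and of the small subunit 20 of 31. Rps21, a small-subunit protein, was at 2508 and 3791 CPM in EEC-PRE against 1527 and 2456 (0.67 ± 0.13, edgeR adjusted p = 2.78e-05), and Rpl13a was at 293.7 and 287.7 CPM against 167.1 and 187.5 (0.72 ± 0.16, edgeR adjusted p = 2.09e-04). The EEC-PRE libraries lay above both SEC-PRO libraries for each gene. Those that fell were Rpl36al, Rps27l and Rpl22l1, all paralogs. The count of members that rose was 15 with TMM factors over all genes and 19 without the library term.

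The choice of scaling moved the median of all genes by up to 1.80 (log2, PANETH against PANETH-PRE, no scaling factors). The members' median less that of all genes was -1.41 in GOBLET, -0.54 in PANETH and 0.36 in EEC-PRE. A scaling factor moves all genes alike, so this difference is close to fixed across scalings. In GOBLET it was -1.11 with no filter on low counts and -1.60 with DESeq2.

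**Figure D3:**
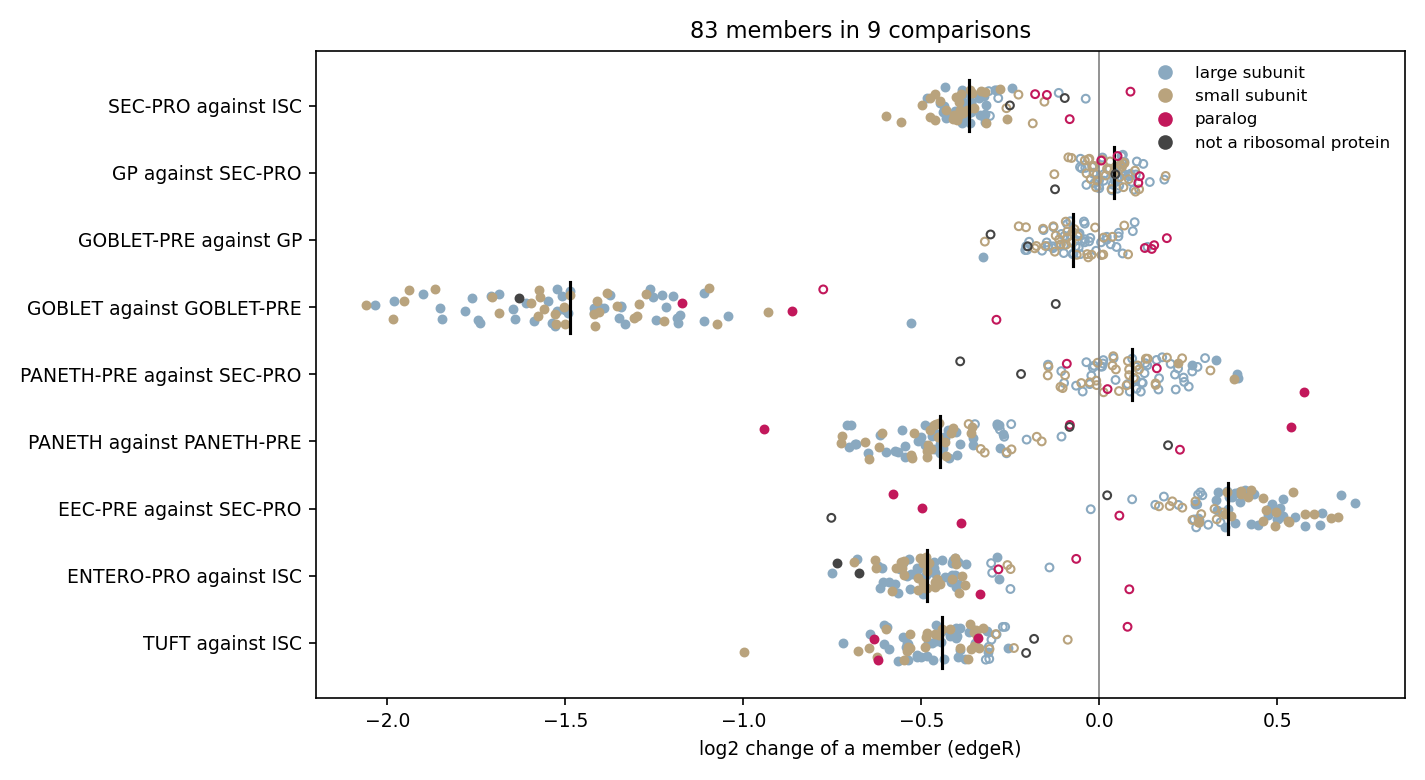
Log2 change (x axis) of each of the 83 members tested in the 9 comparisons between classes (rows), with filled points past an adjusted p of 0.05 in edgeR and open points not, coloured by role. Black lines are the medians. The GOBLET row lies to the left of the others, with a median of -1.49, and the paralogs fall outside the cluster of canonical genes in several rows.

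To see which members left the module, the test was repeated with each sum scaled to the summed UMIs of the members, so that a change is a gene's departure from the rest. In GP against SEC-PRO 0 members departed, where 2.81% of all genes were called higher and 13.3% lower on that scale. In GOBLET-PRE against GP 0 departed (5.4% of all genes higher, 2.58% lower). In SEC-PRO against ISC 2 departed upward and 0 downward (41.2% higher, 5.68% lower). In GOBLET 5 departed upward and 10 downward (36.2% higher, 0.209% lower). In PANETH-PRE Rps27l departed upward and Rps19bp1 downward, 1 each way (8.65% higher, 19.1% lower). In PANETH 4 departed upward and 1 downward (27.9% higher, 0.646% lower). In EEC-PRE 0 departed upward and 5 downward (7.32% higher, 18.9% lower). In ENTERO-PRO 3 departed upward and 0 downward (33% higher, 8.42% lower), and in TUFT 2 upward and 1 downward (31% higher, 5.2% lower). The members that departed in the most comparisons were Rps27l and Rpl36al, each in 5 of 9.

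Among canonical large-subunit genes Rpl41 departed furthest. It made up 2.00 and 2.76% of member UMIs in ISC and 5.41 and 6.56% in GOBLET, and its departure was 0.88 ± 0.14 in GOBLET against GOBLET-PRE (edgeR adjusted p = 1.33e-07). In SEC-PRO against ISC it was 0.32 ± 0.13 (edgeR adjusted p = 0.0373), and in EEC-PRE against SEC-PRO -0.40 ± 0.13 (edgeR adjusted p = 0.0178). Rpl35, Rpl12, Rpl36a, Rpl27a and Rpl13 departed downward in GOBLET, by -0.68, -0.59, -0.53, -0.45 and -0.37. Rpl35 was at 0.365 and 0.601% of member UMIs in GOBLET and 0.633 and 0.918% in GOBLET-PRE, and replicate 2 was the higher one in each of the 12 classes. The acidic stalk proteins Rplp0, Rplp1 and Rplp2, which recruit elongation factors, did not depart in any of the 9 comparisons.

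Among canonical small-subunit genes Rps2 and Rps27 stood out. Rps2 made up 1.96 and 1.52% of member UMIs in ISC, 1.23 and 1.12% in TUFT and 0.811 and 0.761% in GOBLET. Its departure was -0.56 ± 0.14 in TUFT (edgeR adjusted p = 0.00107) and -0.66 ± 0.18 in GOBLET (edgeR adjusted p = 0.00187). Snhg9 lies on the strand opposite Rps2, and the sources used here do not say if counting used strand. Rps27 departed upward in GOBLET (0.47 ± 0.15, edgeR adjusted p = 0.00887) and in TUFT (0.36 ± 0.13, edgeR adjusted p = 0.0293). Rps18, Rps15a, Rpsa and Rps19 departed downward in GOBLET by -0.59, -0.55, -0.55 and -0.47. The range of a gene's share of member UMIs, as its highest class over its lowest, had a median of 1.34 in the large subunit and 1.30 in the small subunit.

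The 4 paralogs tested ranged more widely, with a median ratio of 3.80 between the highest and the lowest class. This was a description of class means, with no test. Rps27l, an Rps27 paralog known as a p53 target, made up 0.174 and 0.099% of member UMIs in EEC-PRE, 0.305 and 0.204% in SEC-PRO, 0.411 and 0.287% in PANETH-PRE and 0.869 and 0.523% in PANETH. It rose in PANETH-PRE against SEC-PRO, at 682.0 and 451.4 CPM against 449.1 and 309.1 (0.58 ± 0.10, edgeR adjusted p = 2.56e-06). It rose again in PANETH against PANETH-PRE, at 1010 and 641.8 CPM (0.54 ± 0.10, edgeR adjusted p = 7.03e-05), while Rps27 fell there (-0.66). Replicate 1 had the higher level in both classes, and the change had the same sign in both replicates. Neither rise passed the test without the library term, and the second did not in cells thinned to 2000 UMIs (0.36). With no scaling factors Rps27l was at 0.01 in PANETH-PRE against SEC-PRO and at -1.29 in PANETH against PANETH-PRE, and within the module its departure there was 0.98 ± 0.11 (edgeR adjusted p = 2.01e-11). In EEC-PRE it fell, at 344.3 and 187.3 CPM (-0.50 ± 0.15, edgeR adjusted p = 0.00749).

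Rpl36al, a close relative of Rpl36a, moved in other places. It made up 0.750 and 0.691% of member UMIs in GOBLET, 0.331 and 0.334% in GOBLET-PRE and 0.127 and 0.160% in EEC-PRE. In GOBLET against GOBLET-PRE it was at 365.8 and 427.0 CPM against 486.4 and 494.0 (-0.29, edgeR adjusted p = 0.288), while Rpl36a fell from 838.9 and 800.7 to 158.2 and 259.9 CPM (-1.90, edgeR adjusted p = 4.56e-16). Within the module Rpl36al departed by 1.10 ± 0.18 in GOBLET (edgeR adjusted p = 3.90e-07), by 0.44 ± 0.10 in SEC-PRO against ISC (edgeR adjusted p = 1.28e-04) and by -0.96 ± 0.15 in EEC-PRE (edgeR adjusted p = 2.79e-07). The gene overlaps the model Gm49383 on the same strand, so reads could be split between them.

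Rpl22l1, the paralog of Rpl22, fell in PANETH against PANETH-PRE, at 310.5 and 230.6 CPM against 655.0 and 399.4 (-0.94 ± 0.11, edgeR adjusted p = 1.04e-10). Rpl22 fell there too, by -0.57. In EEC-PRE against SEC-PRO the pair parted: Rpl22l1 fell, at 442.2 and 269.5 CPM against 546.6 and 386.8 (-0.39 ± 0.13, edgeR adjusted p = 0.0230), and Rpl22 rose (0.51). Rps27rt, an Rps27 copy whose reads could be shared with Rps27, passed the gene-by-gene test in 0 of the 9 comparisons and departed upward within the module in PANETH (0.65 ± 0.17, edgeR adjusted p = 0.00271) and TUFT (0.52 ± 0.18, edgeR adjusted p = 0.0200).

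**Figure D4:**
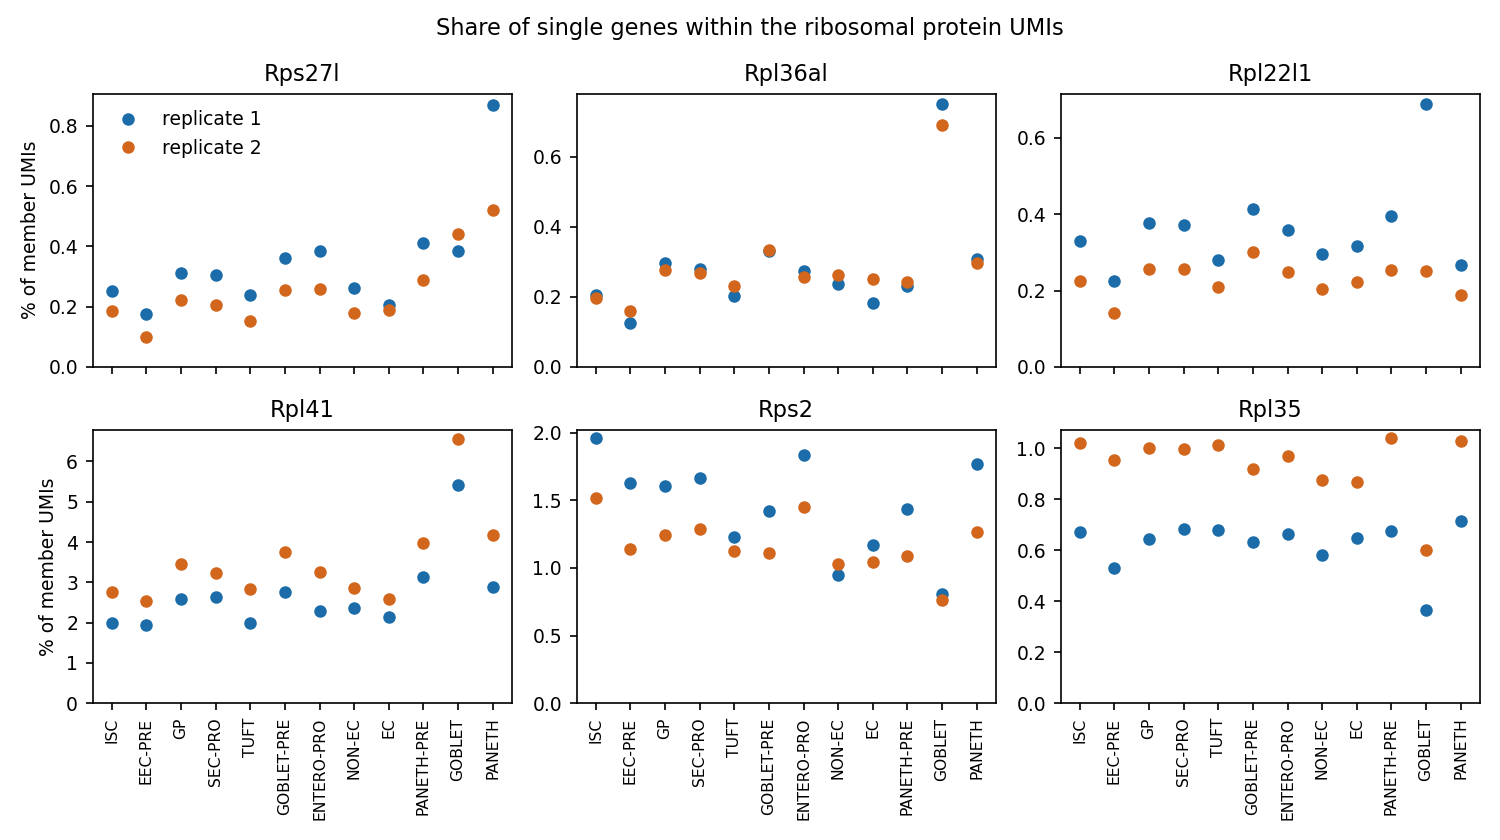
Share of member UMIs (y axis, percent, from 0) held by Rps27l, Rpl36al, Rpl22l1, Rpl41, Rps2 and Rpl35 in the 12 classes (x axis), with 1 dot per library. Rps27l is highest in PANETH, Rpl36al and Rpl41 are highest in GOBLET, and Rps2 and Rpl35 are lowest there. Rpl22l1 in GOBLET differs between the libraries (0.689 and 0.250%).

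Of the 2 namesakes that are not ribosomal proteins, Rps19bp1 departed from the module in 4 comparisons, and Rpl7l1 was not among the members that departed. Rps19bp1, a nucleolar partner of RPS19 and SIRT1, was at 39.5 and 55.7 CPM in GOBLET against 46.7 and 60.3 in GOBLET-PRE (-0.12, edgeR adjusted p = 0.930), and it fell in ENTERO-PRO against ISC, at 43.9 and 41.9 CPM against 70.3 and 72.6 (-0.74 ± 0.19, edgeR adjusted p = 0.00104). Rpl7l1, a large-subunit assembly factor, fell in GOBLET, at 19.8 and 18.6 CPM against 59.3 and 58.8 in GOBLET-PRE (-1.63). It also fell in ENTERO-PRO against ISC, at 51.0 and 54.1 CPM against 88.1 and 81.3 (-0.68). The GOBLET levels of both genes rest on few UMIs.

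Other genes of the translation machinery were taken from fixed lists. Rack1, which sits on the small-subunit head, was at 286.7 and 482.6 CPM in GOBLET against 1613 and 1645 in GOBLET-PRE and fell by 2.03 on the log2 scale. Fau, which encodes the small-subunit protein eS30, was at 1443 and 1658 CPM there against 1879 and 2118 (-0.36, edgeR adjusted p = 0.0772). In SEC-PRO against ISC Rack1 (-0.37) and Fau (-0.32) fell, and in EEC-PRE against SEC-PRO they rose, Rack1 by 0.52 and Fau by 0.49. The elongation list, with the factors that carry tRNA and move the ribosome, had 8 of 10 lower in GOBLET against GOBLET-PRE and 6 of 10 higher with 1 lower in EEC-PRE. Eef1a1 was at 1315 and 1330 CPM in GOBLET against 3782 and 3370 (-1.43), and at 5000 and 4686 CPM in EEC-PRE against 3301 and 3320 in SEC-PRO (0.55). Eef2 fell in GOBLET (-0.97) and rose in EEC-PRE (0.68) and in PANETH-PRE (0.52). Tpt1, a TOP mRNA that encodes no ribosomal protein, fell in GOBLET (-0.76) and rose in EEC-PRE (0.55).

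Ribosome biogenesis genes, which process ribosomal RNA in the nucleolus, are given beside the members. In GOBLET-PRE against GP, where 1 of 83 members fell, 20 of 32 biogenesis genes fell and 0 rose, with a median of -0.54. In GP against SEC-PRO 10 of 32 fell. In ENTERO-PRO against ISC 28 of 32 fell, with a median of -1.47, and in TUFT 20 of 32 fell and 1 rose. Ncl, which encodes nucleolin, was at 1294 and 1277 CPM in ISC, 680.7 and 845.6 in SEC-PRO, 483.1 and 514.9 in GP and 282.7 and 309.6 in GOBLET-PRE, and fell in each of these steps (-0.77, -0.60 and -0.75). In EEC-PRE against SEC-PRO 8 of 32 fell and 2 rose, and Npm1, which encodes nucleophosmin, was 1 of the 2 that rose (1266 and 895.2 CPM against 736.3 and 643.2, 0.65). Myc, a transcriptional activator of ribosome genes, was at 37.9 and 22.9 CPM in ISC and 12.2 and 7.42 in SEC-PRO and fell by 1.58, and it was between 0 and 16.6 CPM in the sums of GP, GOBLET-PRE, GOBLET, PANETH-PRE, PANETH, EEC-PRE, ENTERO-PRO and TUFT. Larp1, which binds TOP mRNAs, was at 54.0 and 59.4 CPM in EEC-PRE against 139.4 and 132.3 in SEC-PRO and fell by 1.27. The differences between lists were not tested.

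The mitochondrial ribosome, built from other proteins for the mitochondrial genome, served as a comparison. Of its 77 genes tested, 49 fell in SEC-PRO against ISC (median -0.39). In PANETH-PRE against SEC-PRO 36 fell and 0 rose (-0.48), where 0 cytosolic members fell. In PANETH against PANETH-PRE 2 rose and 0 fell (0.14), where 62 cytosolic members fell. In GOBLET 12 fell and 1 rose (-0.73, or -0.72 with genes at 0 set to a floor of 3 counts). In EEC-PRE 3 rose and 5 fell (-0.03). Of 28 initiation factors, 15 fell and 2 rose in ENTERO-PRO against ISC, and 10 fell and 2 rose in GOBLET against GOBLET-PRE. Of 11 RNA polymerase I genes, which transcribe ribosomal RNA, 8 fell and 0 rose in ENTERO-PRO against ISC.

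**Figure D5:**
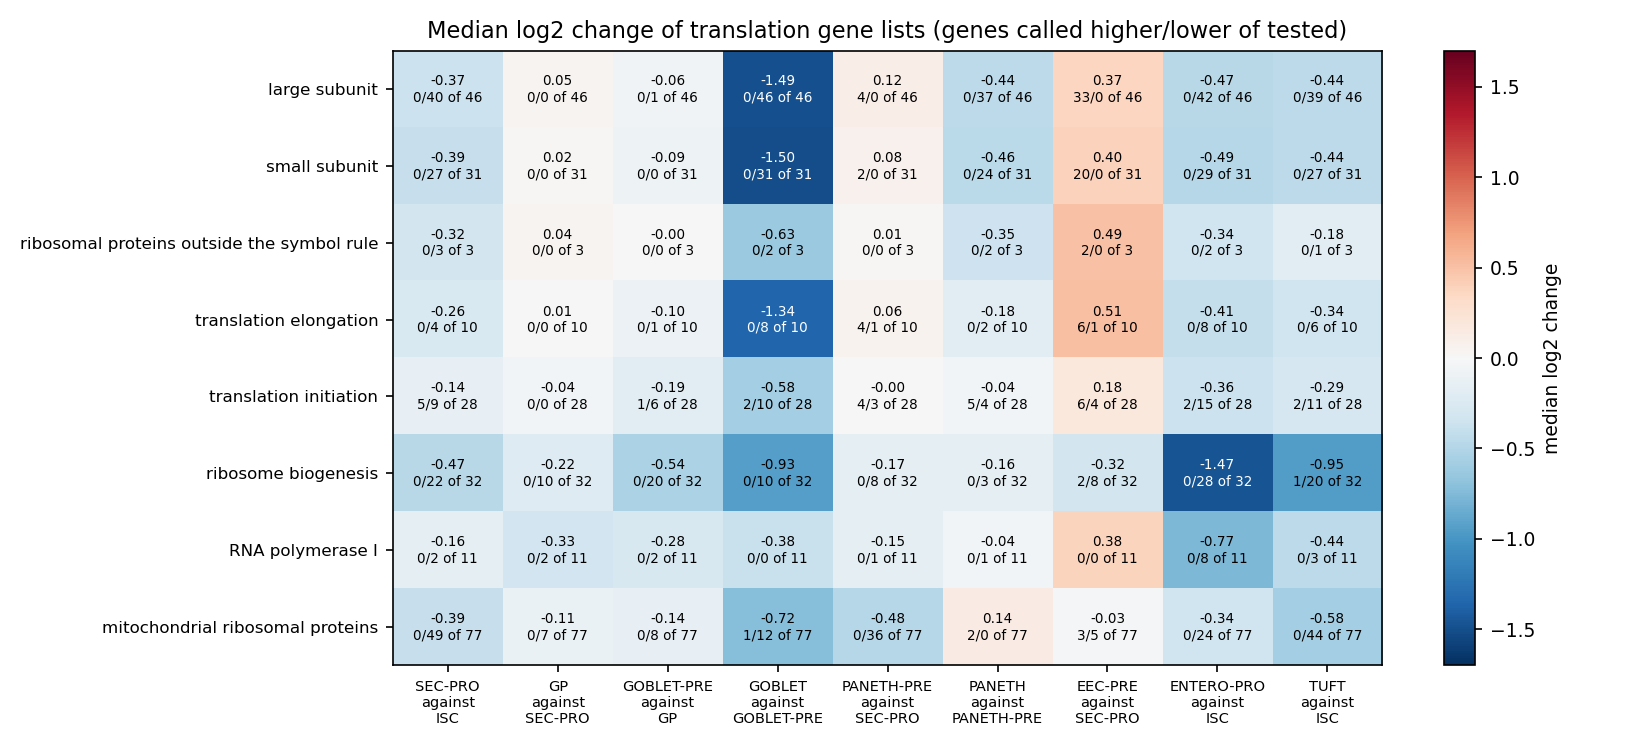
Median log2 change of 8 translation gene lists (rows) in the 9 comparisons (columns), with the number of genes higher and lower of those tested in each cell and colour for the median (scale at right). Genes at 0 in one class are set to a floor of 3 counts over its 2 sums, or left out where the other class is at or under that floor. The biogenesis row is below 0 throughout, while the large- and small-subunit rows are above 0 in EEC-PRE (0.37 and 0.40).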

How the data were processed

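The authors deposited raw UMI counts per gene and barcode for 2 libraries and a cell table with class names. The labels' protocols give the 10x single cell 3′ v3.1 kit, and the submitters' processing notes name Cell Ranger 3.0.2, STAR and mm10. Strand use in counting and the handling of reads with several matches are not stated there. The authors' deposited mitochondrial percent per cell supports no result here. The 11562 barcodes of the cell table were read from the unfiltered matrices (49.5 and 66.1% of all UMIs), its library names being matched to samples by the names of the matrix files. For 4115 of 5305 and 4623 of 6257 cells the UMI total equalled the table's. No further filter on cells or doublets was applied, and the sources used here name none for doublets. Free RNA, read from barcodes with at most 50 UMIs, had 15.05 and 12.6% of UMIs in members, and markers of absent cell types allowed it at most 4.92% of the UMIs of any class.

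Counts were summed per class and library (24 sums) and tested in R 4.3.3 with edgeR 4.0.16 (robust quasi-likelihood, terms for class and library, filterByExpr, 10994 genes). TMM factors came from 2024 genes averaging 6 or more on the log2 CPM scale. The fit had 11 residual degrees of freedom, and its median biological coefficient of variation was 0.0641. Sums of 1 library share its preparation, hence the library term. On simulated counts with 10994 genes, SEC-PRO against ISC recovered 68.0% of 2-fold changes and GOBLET against GOBLET-PRE 14.0%, with 24 and 1 of 10794 unchanged genes called. The members and lists were chosen with earlier results of these data known. Named genes are the 3 largest and 3 smallest changes per comparison among members averaging 5 or more on that scale, the 3 largest and smallest called departures, and fixed members and factors. Alternatives were other scalings, no low-count filter, no library term, cells thinned to 2000 UMIs, DESeq2 1.42.0, each replicate left out and other totals for the share. Sequences are from RefSeq (GRCm38.p6) and gene positions from GENCODE (mm10).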

Additional observations from a re-analysis of the deposited data

How the results depend on the processing

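Without the library term ("no replicate block"), 10 members fell in SEC-PRO against ISC, 0 in GOBLET-PRE, 12 in PANETH, 45 in ENTERO-PRO and 31 in TUFT, 19 rose and 1 fell in EEC-PRE, and 0 rose in PANETH-PRE and in PANETH. This pairing by library is part of the main test, since the sums share a library. With no scaling factors 20 fell in GOBLET-PRE, 75 fell and 0 rose in PANETH-PRE (median -0.48, reversed, with Rpl10 and Rpl41 at -0.18), and 0 rose in PANETH (Rps27l at -1.29). With TMM over all genes 0 fell in GOBLET-PRE and 15 rose in EEC-PRE. In cells thinned to 2000 UMIs 2 fell in GOBLET-PRE, 14 rose in PANETH-PRE and 0 rose in PANETH. DESeq2 called 1 higher in GP, 0 lower in GOBLET-PRE and 16 higher in PANETH-PRE. Scaled to the members' own UMIs, 2 rose and 0 fell in SEC-PRO, 0 fell in GOBLET-PRE, 5 rose and 10 fell in GOBLET, 1 and 1 in PANETH-PRE, 4 and 1 in PANETH, 0 and 5 in EEC-PRE, 3 and 0 in ENTERO-PRO and 2 and 1 in TUFT. That follows from the construction of this scale. The cause of the other shifts was not tested. Shares of all genes called are given here only for the main test and for the scale of the members' own UMIs.

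The share without mitochondrial UMIs was 25.5% in ISC, 25.2% in EEC-PRE, 20.2% in GP, 19.8% in SEC-PRO, 16.9% in GOBLET-PRE, 16.6% in ENTERO-PRO and 14.3% in PANETH-PRE. Without the fixed cell type markers it was 24.9% in ISC, 21.4% in GP, 20.4% in SEC-PRO, 19.7% in GOBLET-PRE, 17.1% in ENTERO-PRO, 15.4% in EC, 19.6% in PANETH-PRE, 6.15% in GOBLET and 5.67% in PANETH. As a mean over cells it was 18.9% in GP, 18.5% in SEC-PRO, 16.1% in GOBLET-PRE, 13.7% in ENTERO-PRO, 13.3% in EC, 15.9% in PANETH-PRE and 3.33% in PANETH. Without Gm42418 and Malat1, an alternative chosen after seeing the data, it was 24.9% in ISC, 19.9% in GP, 19.5% in SEC-PRO, 16.8% in GOBLET-PRE, 16.5% in ENTERO-PRO and 14.2% in PANETH-PRE. Only the 29 values further from the main share than the SD of the 2 libraries are listed here. The other 55 stayed within it, among them all with free RNA subtracted and GOBLET without Gm42418 and Malat1. They include each replicate left out, which stays within it by construction.

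With a replicate left out, each share is that of the other library by construction, and the members' median ranged from -0.43 to -0.30 in SEC-PRO, -1.62 to -1.33 in GOBLET, -0.53 to -0.36 in PANETH, 0.32 to 0.43 in EEC-PRE, -0.54 to -0.41 in ENTERO-PRO and -0.56 to -0.29 in TUFT. Counts of calls were not run with a replicate left out, since 1 sum per class leaves no residual degrees of freedom. Of 320 values of the 32 named changes, 295 kept direction and call, 22 lost the call (15 of them without the library term) and 3 reversed. The GOBLET sums hold 42 and 84 cells. On simulated counts of that comparison, 14% of 2-fold and 22% of 3-fold changes over all genes were recovered, so a gene not called there may still differ.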
